A study of Homo sapiens with 6 samples.

Results

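The genes described here encode the enzymes and regulators that make fatty acids and build them into glycerolipids: 33 genes chosen by name from the 23354 genes of the deposited count table, all of them found under their listed symbols. The RNA came from LNCaP, a cell line grown from a human prostate cancer that responds to androgen, in 2 groups. In the DHT+WBM group (3 libraries) the cells had received the androgen dihydrotestosterone (DHT) at 1 nM together with an extract of white button mushroom (WBM, Agaricus bisporus) at 3 μL/mL. In the DHT group (3 libraries) they had received DHT at 1 nM alone, so both groups carried the androgen, and no library without DHT was analysed here. Exposure lasted 48 h in both groups, and the labels state neither a vehicle for the extract nor whether the triplicates were separate cultures. The p-values therefore rest on library-to-library spread, part or all of which could be technical. The comparison asks how the extract changes expression in cells under androgen.

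Fatty acid synthesis starts from acetyl-CoA, which ACLY makes from citrate and ACSS2 from acetate. Acetyl-CoA carboxylase turns it into malonyl-CoA, and fatty acid synthase builds palmitate, which elongases of the ELOVL family lengthen and desaturases of the SCD and FADS families make unsaturated. Long-chain acyl-CoA synthetases activate the chains, and acyltransferases, lipins and DGAT enzymes place them on glycerol to give phospholipid precursors and triacylglycerol. In prostate cancer cells this programme is known to be driven in part by androgens, acting with the sterol-responsive transcription factor SREBP-1, the product of SREBF1.

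With the extract these genes moved in both directions, and more of them were higher than lower. The desaturases, 3 of 4 long-chain acyl-CoA synthetases and 5 of 7 glycerolipid assembly genes were higher with the extract, whereas SREBF1, the elongases ELOVL7, ELOVL5 and ELOVL2, the carboxylase ACACA and the lipogenic regulator MID1IP1 were lower. By edgeR's quasi-likelihood test at an adjusted p under 0.05, 19 of the 33 genes were higher, 7 were lower and 7 did not pass. That is 78.8% called, against 58.2% of all 13466 tested genes, 57.6% higher against 29.2% of all tested genes, and 21.2% lower against 29.0%. These genes are mostly abundant, and among genes with a mean of at least 10 CPM (a count divided by its library size, on a scale shared by all libraries), 24 of 30 members were called, against 62.1% of all such genes. The median log2 fold change was 0.19 over the 33 genes and 0.00 over all tested genes, and the median absolute log2 fold change was 0.27 and 0.21. An absolute log2 fold change of 0.5 was reached by 6 of the 33, all 6 past the test. That share is close to the 17.9% of all tested genes past both limits. All 33 passed the filter on low counts. The libraries of the groups did not overlap for 24 of the 33, against 62.2% of all tested genes.

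**Figure D1:**
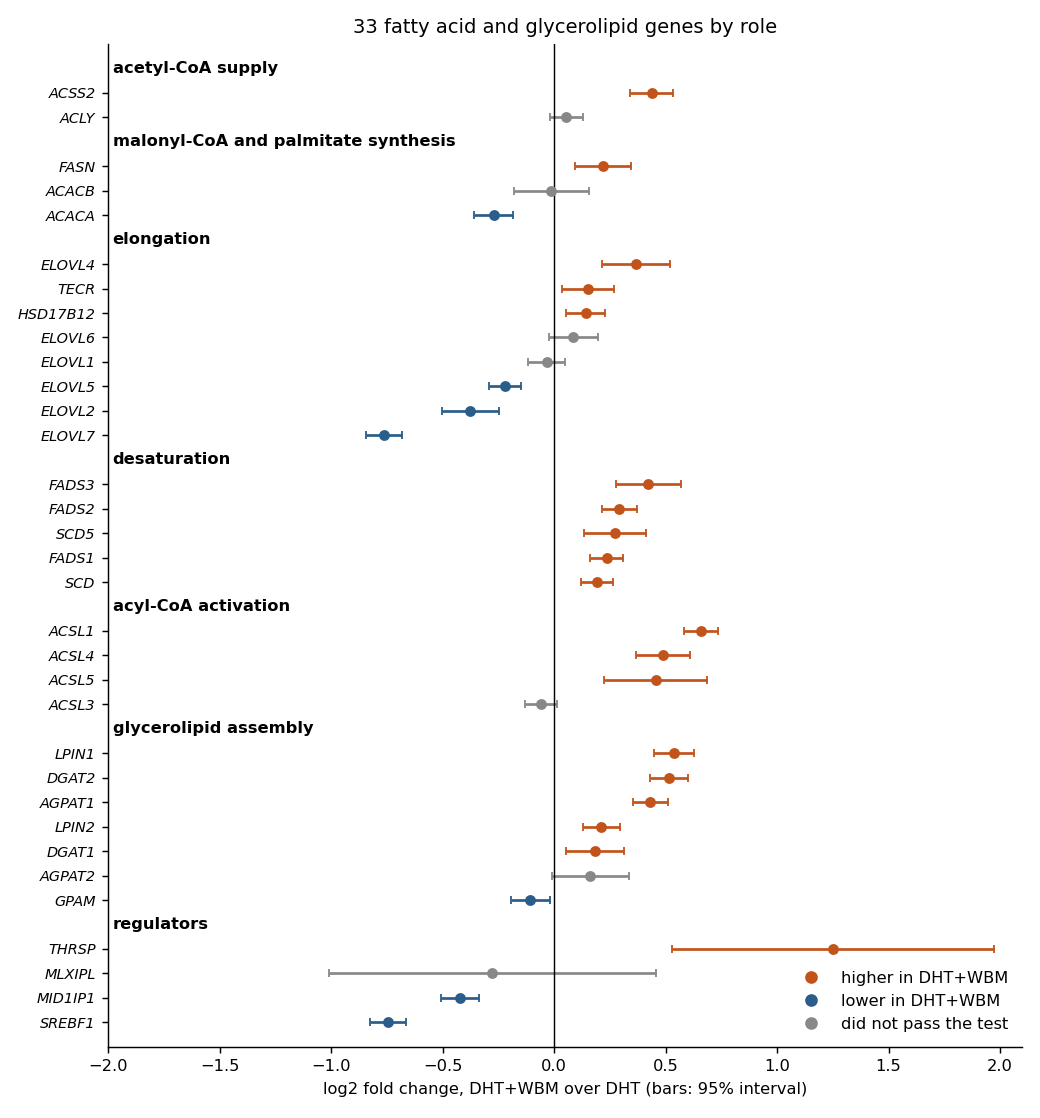
Log2 fold change of DHT+WBM over DHT for the 33 genes, grouped by role, each with its approximate 95% interval. Orange points passed the test as higher, blue points as lower, and grey points did not pass. The 5 desaturases lie right of 0, and ELOVL7 at -0.76 and SREBF1 at -0.75 lie farthest left.

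The libraries held 19127357 to 21490953 counts each. Levels below are CPM scaled by TMM factors, given as mean ± SD over 3 libraries per group, and intervals and errors of fold changes are standard errors (SE) of the fit. The cell identity was checked against markers. All 10 luminal prostate markers were expressed, with a summed level of 4580 to 4670 CPM in DHT+WBM and 6725 to 6909 CPM in DHT. The 4 adipocyte markers summed to 0.15 to 0.28 CPM in DHT+WBM and 0.10 to 0.15 CPM in DHT. Of these, ADIPOQ and LEP had no count in any library, PLIN1 had 19 counts and FABP4 had 2 over the 6 libraries. The basal list (KRT5, KRT14, TP63) summed to at most 0.10 CPM in DHT+WBM and 0.29 CPM in DHT, with KRT5 at 0. The 4 fibroblast markers summed to 11.05 to 11.99 CPM in DHT+WBM and 9.997 to 11.51 CPM in DHT, nearly all from COL1A1, with COL1A2 at 0. The 3 immune markers summed to 80.6 to 89.6 CPM in DHT+WBM and 21.6 to 23.8 CPM in DHT, all but a trace from CD68, while PTPRC and CD14 had 3 counts each over the 6 libraries. Some spans overlap another gene on the other strand, DGAT1 with HSF1 by 139 bases and ELOVL2 with ELOVL2-AS1 by 634 bases, and without a known strand setting their reads cannot be told apart there. In bulk RNA, fewer cells that express a gene and less RNA per cell cannot be told apart. The luminal sum and CD68 differed between the groups, and their part in the values below was not tested.

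Promoter sequences of 4 of these genes are shown as examples from both directions of change. So few sequences cannot tell whether members that moved together, or apart, share the motifs of the sterol-responsive programme. They are the promoters of SREBF1, MID1IP1 and ELOVL7, which fell, and of SCD, which rose, taken from RefSeq on GRCh38.p14, each running 5′ to 3′ on the gene's own strand over 300 bases (250 before to 50 after the annotated start). They lie at chr17:17836937-17837236 (minus strand), chrX:38801209-38801508 (plus), chr5:60844220-60844519 (minus) and chr10:100346983-100347282 (plus). Capitals mark exact matches on either strand to the sterol regulatory element of 10 letters, the NF-Y box CCAAT and the Sp1 box GGGCGG. Other forms of these elements were not marked.
SREBF1: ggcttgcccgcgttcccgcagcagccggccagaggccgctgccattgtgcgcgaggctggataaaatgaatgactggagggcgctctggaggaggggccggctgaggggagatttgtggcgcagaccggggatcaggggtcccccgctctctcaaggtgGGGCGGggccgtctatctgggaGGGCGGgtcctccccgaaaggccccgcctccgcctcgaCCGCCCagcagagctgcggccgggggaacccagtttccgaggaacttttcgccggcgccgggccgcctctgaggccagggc
MID1IP1: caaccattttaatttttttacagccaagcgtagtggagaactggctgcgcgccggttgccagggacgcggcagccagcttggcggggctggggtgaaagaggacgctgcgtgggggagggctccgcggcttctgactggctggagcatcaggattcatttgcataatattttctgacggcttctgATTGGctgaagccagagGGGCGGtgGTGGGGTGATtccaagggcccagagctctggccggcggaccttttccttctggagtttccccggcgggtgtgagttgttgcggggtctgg
ELOVL7: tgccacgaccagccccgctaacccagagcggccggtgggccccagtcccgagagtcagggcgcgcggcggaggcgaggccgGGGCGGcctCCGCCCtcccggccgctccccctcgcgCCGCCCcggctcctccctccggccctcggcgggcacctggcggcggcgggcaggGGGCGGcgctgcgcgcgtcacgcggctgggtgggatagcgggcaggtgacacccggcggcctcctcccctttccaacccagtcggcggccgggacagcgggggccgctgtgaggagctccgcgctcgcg
SCD: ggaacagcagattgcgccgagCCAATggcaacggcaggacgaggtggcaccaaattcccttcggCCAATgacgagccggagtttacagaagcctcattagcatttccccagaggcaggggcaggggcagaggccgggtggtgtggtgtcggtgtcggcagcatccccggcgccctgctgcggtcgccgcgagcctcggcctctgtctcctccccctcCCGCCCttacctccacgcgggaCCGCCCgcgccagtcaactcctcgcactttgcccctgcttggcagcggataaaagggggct

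The MID1IP1 window held 1 sterol regulatory element (the longest run of capitals, on the opposite strand) near 1 NF-Y box and 1 Sp1 box. The SCD window held 2 NF-Y and 2 Sp1 boxes, the SREBF1 window 3 Sp1 boxes and the ELOVL7 window 4 Sp1 boxes. RefSeq windows were found for 29 of the 33 genes, 48 windows in all because several genes have more than 1 start. DGAT1, DGAT2, FASN and HSD17B12, all called higher, were not matched. The sterol regulatory element occurred in 1 of the 48 windows (2.08%), against 16 of all 35116 windows (0.0456%). The NF-Y box occurred in 47.9% of the members' windows and 34.6% of all windows, and the Sp1 box in 72.9% and 45.0%.

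Divided by direction, an NF-Y box lay in a window of 10 of the 15 matched genes that rose, 4 of the 7 that fell and 4 of the 7 that did not pass. The Sp1 box lay in 13 of 15, 6 of 7 and 7 of 7. These counts take a gene as having the motif if any of its windows does, so the shares of all windows are no background for them. The other motifs were searched on both strands too. The E-box CACGTG lay in 6.25% of the members' windows (7.26% of all windows), the looser sterol element TCACNCCAC, which includes the full element, in 4.17% (1.13%), and the LXR half-site AGGTCA in 8.33% (13.8%). The aryl hydrocarbon receptor core GCGTG lay in 47.9% (36.5%), the antioxidant response element TGACNNNGC in 6.25% (13.3%) and the androgen receptor half-site AGAACA in 8.33% (14.8%). These are letter matches in short windows, given as a description.

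Among the regulators, SREBF1 and MID1IP1 fell and THRSP, at a trace level, rose. SREBF1 (chromosome 17, 17714663 to 17740325, minus strand, hg19), which encodes SREBP-1, had 153, 157 and 165 CPM in DHT+WBM and 282, 254 and 262 CPM in DHT. Every DHT+WBM library lay well below every DHT library, and the log2 change was -0.75 ± 0.04 (edgeR adjusted p = 3.67e-18). Its span overlaps RAI1 on the other strand by 103 bases, and RAI1 stood at 52.1 CPM in DHT+WBM and 54.9 CPM in DHT. MID1IP1 (chromosome X, 38660685 to 38665783, plus strand), whose product activates acetyl-CoA carboxylase by promoting its polymerisation, had 78.9, 77.3 and 75.6 CPM in DHT+WBM and 105, 101 and 105 CPM in DHT. The groups did not overlap, and the log2 change was -0.42 ± 0.04 (edgeR adjusted p = 1.01e-10). THRSP, the close relative of MID1IP1 known as Spot 14, had 0.73, 0.82 and 0.69 CPM in DHT+WBM and 0.29, 0.25 and 0.39 CPM in DHT, that is 15, 16 and 15 reads against 6, 5 and 8. Its log2 fold change was 1.25 ± 0.37 (edgeR adjusted p = 0.00395). Its whole span of 4497 bases lies within that of NDUFC2-KCTD14 on the other strand, which had no count, and shares 11 bases with NDUFC2, at 77.1 CPM in DHT+WBM and 74.1 CPM in DHT, so with no known strand setting its few reads are uncertain. MLXIPL, which encodes the glucose-responsive factor ChREBP, was also at a trace, at 0.47 ± 0.12 CPM in DHT+WBM and 0.57 ± 0.23 CPM in DHT, and did not pass the test (95% interval of the log2 fold change -1.01 to 0.46). The whole MLXIPL span of 31347 bases is shared with GTF2IP4 on the same strand, at 3.24 CPM in DHT+WBM and 2.25 CPM in DHT. The few MLXIPL reads are therefore uncertain as well.

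**Figure D2:**
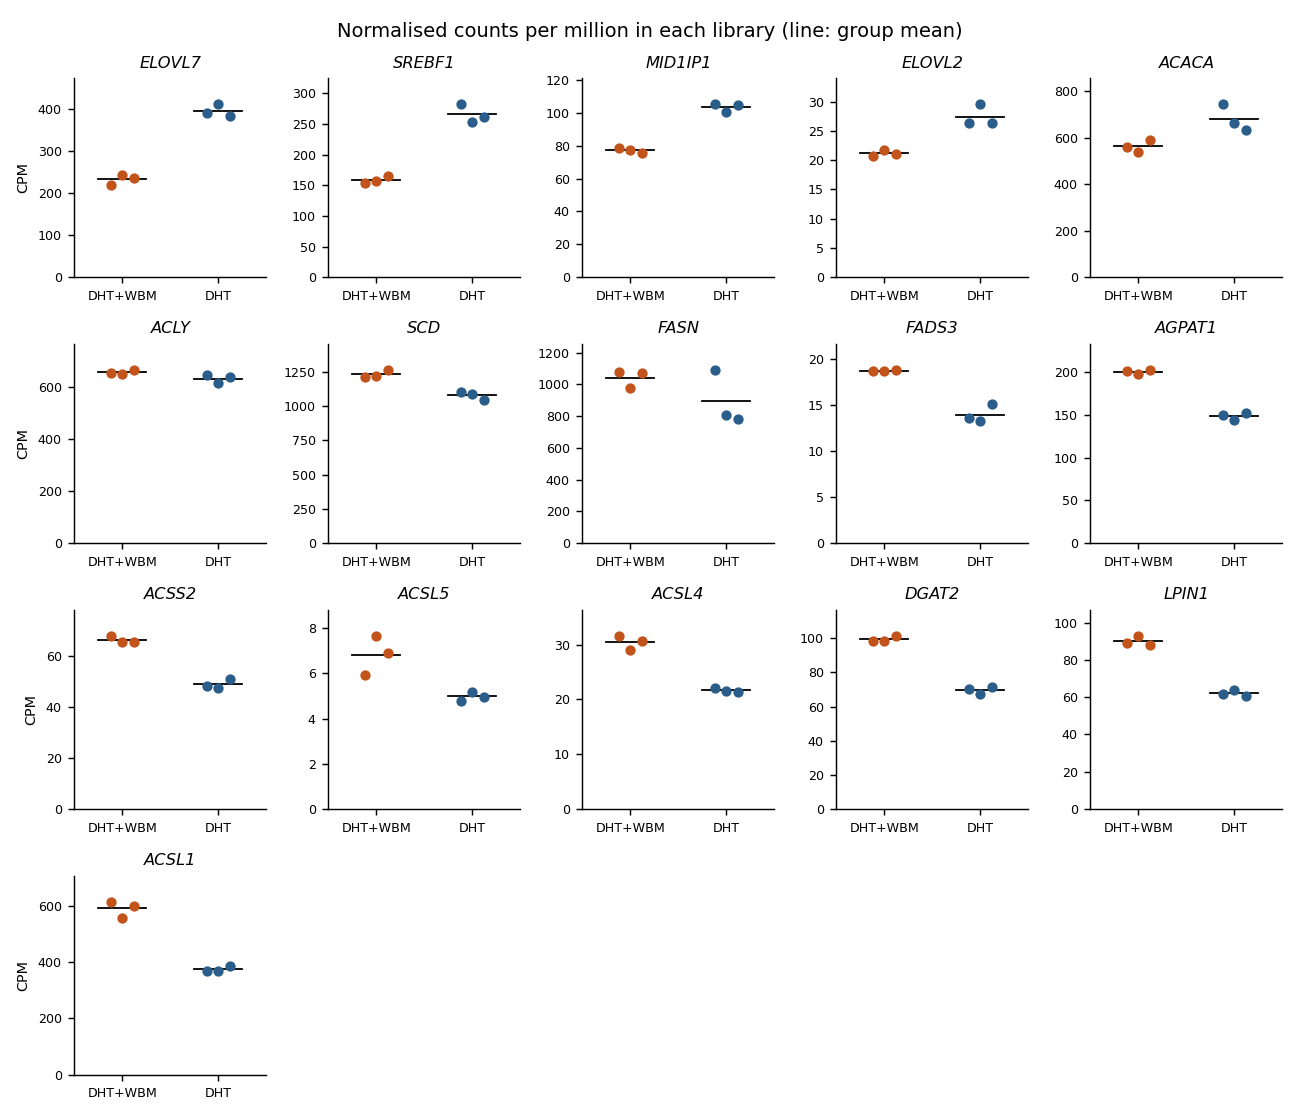
Normalised counts (CPM) in each of the 6 libraries for 16 of the genes, ordered from the largest fall to the largest rise, with the group mean as a line. The groups separate in every panel but FASN, where DHT replicate 1 at 1090 CPM lies above all DHT+WBM libraries.

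The genes that supply and join acetyl units did not move together. ACSS2 (chromosome 20, 33462766 to 33515769), which makes acetyl-CoA from acetate, had 68.0, 65.6 and 65.7 CPM in DHT+WBM and 48.4, 47.7 and 51.2 CPM in DHT, a log2 change of 0.44 ± 0.05 (edgeR adjusted p = 7.00e-10). ACLY (chromosome 17, 40023179 to 40075272), which makes acetyl-CoA from citrate, had 656, 650 and 665 CPM in DHT+WBM and 645, 614 and 637 CPM in DHT. Its groups did not overlap, but the log2 fold change of 0.05 ± 0.04 did not pass the test (edgeR adjusted p = 0.207, 95% interval -0.02 to 0.13). With upper-quartile factors or library totals alone it passed, at 0.09 and 0.10.

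ACACA (chromosome 17, 35441927 to 35766902, minus strand), the cytosolic acetyl-CoA carboxylase that commits carbon to fatty acid synthesis, had 561, 538 and 590 CPM in DHT+WBM and 743, 663 and 633 CPM in DHT. All DHT+WBM libraries were lower than all DHT libraries, and the log2 change was -0.27 ± 0.04 (edgeR adjusted p = 2.41e-06), or -0.20 without DHT replicate 1. ACACB, the mitochondrial carboxylase isoform linked to control of fatty acid oxidation, was far less abundant, at 12.3 ± 0.22 CPM in DHT+WBM and 12.4 ± 1.32 CPM in DHT, and did not pass the test (95% interval of the log2 fold change -0.18 to 0.16). FASN (chromosome 17, 80036214 to 80056106, minus strand), fatty acid synthase itself, had 1078, 976 and 1070 CPM in DHT+WBM and 1090, 811 and 784 CPM in DHT. DHT replicate 1 was above the highest DHT+WBM library, so the groups overlapped, although the fit called FASN higher, at 0.22 ± 0.06 on the log2 scale (edgeR adjusted p = 0.00347). The value was 0.38 without DHT replicate 1, 0.15 without DHT replicate 2 (edgeR adjusted p = 0.0512) and 0.13 without DHT replicate 3, and DESeq2 did not call it (adjusted p = 0.274). FASN in DHT replicate 1 stood 1.37-fold above the mean of the other DHT libraries, a distance exceeded by 8 of 9622 genes with a mean of at least 10 CPM in that library. Among those 8 were the nuclear RNAs MALAT1, at 2155 CPM in DHT replicate 1 against 880 and 1497 CPM in the others, and NEAT1, at 74.8 against 48.9 and 44.9 CPM. The part of that library's makeup in the FASN value was not tested.

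Elongation genes were divided, and ELOVL5, the most abundant elongase per length, was among those that fell. ELOVL7 (chromosome 5, 60047616 to 60140101, minus strand), which lengthens saturated very-long-chain acyl-CoAs and is known as an androgen-regulated gene in prostate cancer, had 219, 244 and 237 CPM in DHT+WBM and 392, 412 and 383 CPM in DHT. This was the largest fall of the 33, a log2 change of -0.76 ± 0.04 (edgeR adjusted p = 1.33e-18), with the groups far apart. ELOVL5 (chromosome 6, 53132196 to 53213977), which lengthens polyunsaturated chains, had 1156, 1166 and 1187 CPM in DHT+WBM and 1363, 1363 and 1359 CPM in DHT, a log2 change of -0.22 ± 0.04 (edgeR adjusted p = 2.68e-06). ELOVL2 (chromosome 6, 10980993 to 11044624), which acts on longer polyunsaturated chains, had 20.7, 21.8 and 21 CPM in DHT+WBM and 26.4, 29.6 and 26.4 CPM in DHT, a log2 change of -0.38 ± 0.07 (edgeR adjusted p = 6.20e-06). The groups did not overlap for either gene.

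ELOVL4, needed for very-long-chain lipids of retina and skin, rose to 23.3 ± 2.02 CPM in DHT+WBM, against 18.1 ± 2.27 CPM in DHT (log2 fold change 0.37 ± 0.08, edgeR adjusted p = 1.16e-04). ELOVL6, which extends palmitate, and ELOVL1, which extends saturated very-long chains, did not pass the test, with 95% intervals of the log2 fold change of -0.02 to 0.20 and -0.12 to 0.05. ELOVL6 passed under library totals alone, at 0.13. The reductases of the elongation cycle rose slightly, HSD17B12 by a log2 change of 0.14 ± 0.05 and TECR by 0.15 ± 0.06. The HSD17B12 call (edgeR adjusted p = 0.00758) was lost without DHT+WBM replicate 2 (adjusted p = 0.0601) or DHT+WBM replicate 3 (0.0771). The TECR call (edgeR adjusted p = 0.0289) was lost without DHT+WBM replicate 3 (0.339), without DHT replicate 2 (0.208) and in DESeq2 (0.0853), and its groups overlapped.

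All 5 desaturases rose. SCD (chromosome 10, 102106772 to 102124588, plus strand), the stearoyl-CoA desaturase that makes oleate and palmitoleate, had 1210, 1221 and 1260 CPM in DHT+WBM and 1104, 1084 and 1043 CPM in DHT, a log2 change of 0.19 ± 0.04 (edgeR adjusted p = 3.67e-05) with no overlap. Its paralog SCD5 was scarce, at 30.5 ± 1.97 CPM in DHT+WBM and 25.3 ± 3.47 CPM in DHT. SCD5 passed the test at 0.27 ± 0.07 although its groups overlapped, and its log2 fold change was 0.18 without DHT replicate 3, 1.55 times smaller. FADS3, a member of the FADS family that acts on sphingoid bases, had 18.7, 18.7 and 18.8 CPM in DHT+WBM and 13.6, 13.2 and 15.1 CPM in DHT, a log2 change of 0.42 ± 0.07 (edgeR adjusted p = 8.00e-06). FADS2, the delta-6 desaturase, rose to 1152 ± 30.5 CPM in DHT+WBM, against 941 ± 47.8 CPM in DHT (log2 fold change 0.29 ± 0.04). FADS1, the delta-5 desaturase, rose to 360 ± 7.53 CPM in DHT+WBM, against 306 ± 1.47 CPM in DHT (0.24 ± 0.04). The groups did not overlap for any of the 3 FADS genes.

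The 3 FADS genes sit side by side on chromosome 11, from 61567097 to 61659006 (hg19), and FADS1 and FADS2 overlap by 802 bases on opposite strands, where reads cannot be assigned without strand. Their 7 tested neighbours within 100 kb did not share a direction, with 3 higher, 3 lower and 1 not past the test. FTH1, the ferritin heavy chain gene, was higher by a log2 change of 1.81 ± 0.04 and MYRF by 1.16 ± 0.16. The flap endonuclease gene FEN1 was lower by -1.07 ± 0.05 and TMEM258 by -0.22 ± 0.05. RAB3IL1 did not pass the test at -0.03 ± 0.12.

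Acyl-CoA synthetases rose, with the exception of ACSL3, the most abundant per length. ACSL1 (chromosome 4, 185676749 to 185747215, minus strand), which activates long-chain fatty acids for triacylglycerol synthesis or oxidation, had 614, 558 and 601 CPM in DHT+WBM and 370, 369 and 385 CPM in DHT. The groups were far apart, and the log2 fold change of 0.66 ± 0.04 (edgeR adjusted p = 3.63e-17) was the largest rise among the members with a mean of at least 1 CPM. ACSL4 (chromosome X, 108884564 to 108976621), which prefers arachidonate and is known for its role in ferroptosis, had 31.5, 29.0 and 30.7 CPM in DHT+WBM and 22.1, 21.6 and 21.4 CPM in DHT, a log2 change of 0.49 ± 0.06 (edgeR adjusted p = 1.66e-08). ACSL5 (chromosome 10, 114133916 to 114188138), found on mitochondria and the endoplasmic reticulum, had 5.95, 7.65 and 6.91 CPM in DHT+WBM and 4.78, 5.19 and 4.97 CPM in DHT, a log2 change of 0.46 ± 0.12 (edgeR adjusted p = 0.00110). Neither gene's groups overlapped. ACSL3, a lipid droplet synthetase known to be induced by androgen in LNCaP cells, stood at 1244 ± 31.5 CPM in DHT+WBM and 1297 ± 16.5 CPM in DHT and did not pass the test (log2 fold change -0.06 ± 0.04, 95% interval -0.13 to 0.01).

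In the assembly of glycerolipids, 5 of 7 genes were higher and 1, GPAM, was lower, with 85.7% called against 58.2% of all tested genes. AGPAT1 (chromosome 6, 32135983 to 32145888), which makes phosphatidate, had 202, 198 and 202 CPM in DHT+WBM and 150, 144 and 153 CPM in DHT, a log2 change of 0.43 ± 0.04 (edgeR adjusted p = 4.65e-12). LPIN1 (chromosome 2, 11817705 to 11967533), a phosphatidate phosphatase that yields diacylglycerol, had 89.0, 92.9 and 88.3 CPM in DHT+WBM and 61.8, 63.8 and 60.6 CPM in DHT, a log2 change of 0.54 ± 0.05 (edgeR adjusted p = 5.76e-13). DGAT2 (chromosome 11, 75479778 to 75512581), which completes triacylglycerol, had 98.7, 98.3 and 101 CPM in DHT+WBM and 70.0, 67.2 and 71.5 CPM in DHT, a log2 change of 0.52 ± 0.04 (edgeR adjusted p = 9.04e-13). In each of these 3 genes all DHT+WBM libraries lay above all DHT libraries.

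LPIN2, the second lipin, rose less, to 114 ± 3.36 CPM in DHT+WBM, against 98.1 ± 0.79 CPM in DHT (log2 fold change 0.21 ± 0.04, edgeR adjusted p = 4.57e-05). DGAT1, the other triacylglycerol-forming enzyme, passed the test at 0.18 ± 0.07 (edgeR adjusted p = 0.0167), but its groups overlapped. The DGAT1 call was lost without DHT+WBM replicate 1 (edgeR adjusted p = 0.0505), without DHT+WBM replicate 3 (log2 fold change 0.12, adjusted p = 0.200), without DHT replicate 2 (0.12, adjusted p = 0.131) and in DESeq2 (adjusted p = 0.0605). AGPAT2 did not pass the test (95% interval of the log2 fold change -0.01 to 0.34), though it did without DHT replicate 1, at 0.24 (edgeR adjusted p = 0.0318), and with library totals alone, at 0.21 (0.0419). GPAM, the mitochondrial acyltransferase that starts the pathway, was lower at 72.5 ± 2.32 CPM in DHT+WBM, against 78.0 ± 1.00 CPM in DHT (log2 fold change -0.11 ± 0.04, edgeR adjusted p = 0.0402). The GPAM call was the least stable of the 7 falls. It was lost without DHT+WBM replicate 1 or 3 or DHT replicate 1 or 2 (edgeR adjusted p = 0.0688, 0.154, 0.0675 and 0.0648), with upper-quartile factors (0.145), with library totals alone (0.252) and in DESeq2 (0.0731).

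Levels of different genes were compared per kilobase of the gene length in the deposited table. ELOVL5 ranked highest of the 33 in both groups, at 297 CPM per kb in DHT+WBM and 346 CPM per kb in DHT. FADS2 at 287 and ACSL3 at 286 CPM per kb came next in DHT+WBM, and ACSL3 at 299 and FADS2 at 235 CPM per kb in DHT. SCD followed at 225 CPM per kb in DHT+WBM and 197 CPM per kb in DHT. FASN reached 124 CPM per kb in DHT+WBM and 106 CPM per kb in DHT. THRSP and MLXIPL were the lowest, both under 1 CPM per kb in both groups. Together the 33 genes took 0.962 to 0.994% of all counts in DHT+WBM libraries and 0.896 to 0.954% in DHT libraries.

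**Figure D3:**
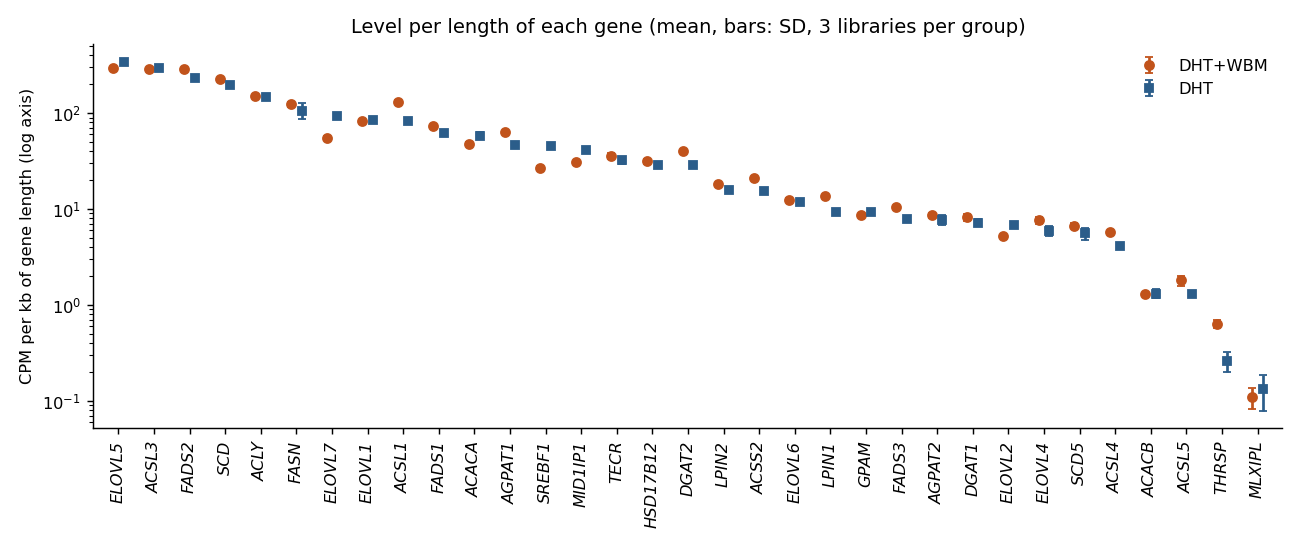
CPM per kb of gene length on a log axis for the 33 genes, ordered by their level in DHT, with DHT+WBM as orange circles and DHT as blue squares (mean, bars: SD over 3 libraries). ELOVL5 stands at 297 CPM per kb in DHT+WBM and 346 in DHT, and MLXIPL at 0.11 and 0.13.

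Within families, the summed level per length also moved in both directions. The 6 elongases together summed to 459 ± 4.98 CPM per kb in DHT+WBM and 548 ± 2.23 CPM per kb in DHT, with ELOVL7 making up 11.4 to 12.6% of that sum in DHT+WBM libraries and 16.6 to 17.7% in DHT libraries. The 3 FADS genes summed to 371 ± 9.17 CPM per kb in DHT+WBM and 305 ± 12.4 CPM per kb in DHT. The 4 ACSL genes summed to 425 ± 10.5 CPM per kb in DHT+WBM and 387 ± 3.49 CPM per kb in DHT, with ACSL1 at 30.8 ± 1.1% of the sum in DHT+WBM and 21.4 ± 0.53% in DHT. The groups did not overlap for any of these 3 sums (exact permutation test, two-sided p = 0.1 each, the smallest that 3 against 3 libraries allow).

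Ratios of 8 pairs of related genes were compared, since library scaling and gene length cancel in the change of a ratio. The ACSL1 to ACSL3 ratio per length was 0.484, 0.436 and 0.452 in DHT+WBM and 0.277, 0.270 and 0.287 in DHT, a log2 difference of 0.72. The ELOVL5 to ELOVL7 ratio was 5.65, 5.12 and 5.35 in DHT+WBM and 3.72, 3.54 and 3.79 in DHT, a difference of 0.54. The LPIN1 to LPIN2 ratio differed by 0.33, AGPAT1 to AGPAT2 by 0.26 and ACACA to ACACB by -0.26 on the log2 scale. In these 5 pairs the groups did not overlap. Their two-sided exact permutation p was 0.1 each, the smallest that 3 against 3 libraries allow, and 0.16 after Benjamini-Hochberg adjustment over the 8 pairs, so none could pass a threshold of 0.05. The groups overlapped for SCD to SCD5, ELOVL1 to ELOVL6 and FADS1 to FADS2, with log2 differences of -0.09, -0.12 and -0.06 (exact permutation p = 0.6, 0.2 and 0.4).

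**Figure D4:**
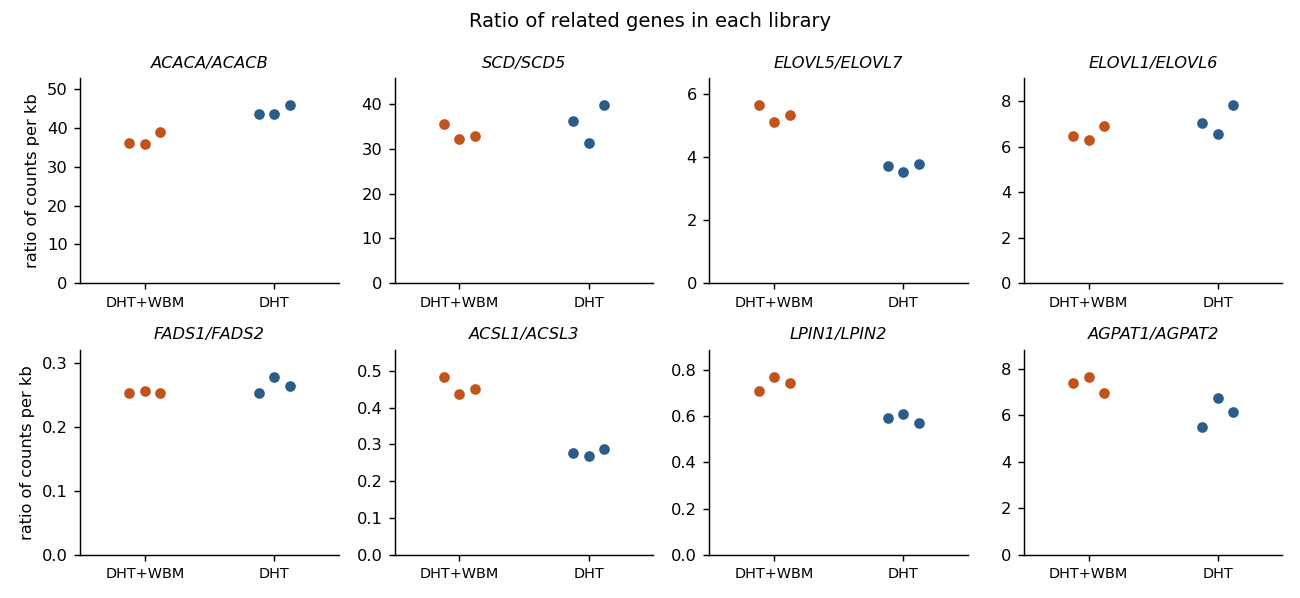
Ratio of counts per kb between related genes in each library, for 8 pairs, DHT+WBM in orange and DHT in blue. The ACSL1/ACSL3 ratio lies between 0.436 and 0.484 in DHT+WBM and between 0.270 and 0.287 in DHT.

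Other genes of the pathway were counted in 8 lists of 133 genes, of which 105 could be tested and 34 were higher and 17 lower, 48.6% called against 58.2% of all tested genes. The supply of acetyl-CoA and NADPH, the reductant of fatty acid synthesis, had 7 of 12 tested genes higher and 1 lower (median log2 fold change 0.16), that is 58.3% higher, against 29.2% of all tested genes. The malic enzyme gene ME1 rose to 297 ± 2.75 CPM in DHT+WBM, against 169 ± 4.49 CPM in DHT, and the log2 change was 0.81 ± 0.04 (edgeR adjusted p = 1.67e-20). The transketolase gene TKT rose by 0.40 ± 0.04. Among other acyl-CoA synthetases and carriers 5 of 10 were higher and 2 lower. In that list 50% were higher and 70% called, against 29.2% and 58.2% of all tested genes. ACSL6, another long-chain synthetase, rose to 7.25 ± 1.37 CPM in DHT+WBM, against 2.83 ± 0.39 CPM in DHT, the transporter gene SLC27A2 rose by 0.47 ± 0.06 and the acyl-CoA thioesterase gene ACOT7 fell by 0.51 on the log2 scale.

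Of the regulators that act with SREBP-1, LXR and ChREBP, 6 of 17 were higher and 2 lower, and the list had a median log2 change of 0.02. That is 35.3% higher and 47.1% called, against 29.2% and 58.2% of all tested genes. INSIG1 and INSIG2, whose products hold the SREBP precursor in the endoplasmic reticulum, rose by 0.81 ± 0.04 (edgeR adjusted p = 3.31e-20) and 0.46 ± 0.06 (edgeR adjusted p = 1.34e-08). TXNIP, a target of ChREBP and its relative MondoA, rose to 270 ± 14.5 CPM in DHT+WBM, against 135 ± 7.74 CPM in DHT. SREBF2, the paralog of SREBF1, and SCAP, the escort of SREBP, did not pass the test at -0.01 ± 0.04 and 0.01 ± 0.04. Of the AMPK list, the kinase that inhibits acetyl-CoA carboxylase, 5 of 10 were higher and 1 lower. The list was 50% higher and 60% called, against 29.2% and 58.2% of all tested genes. The subunit genes PRKAB2 and PRKAA2 stood at 0.33 ± 0.05 and 0.24 ± 0.06. STRADA, a partner of the upstream kinase LKB1, stood at 0.42 ± 0.06.

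Of the phospholipid branches that draw on phosphatidate and diacylglycerol, 6 of 17 genes were lower and 2 higher (median log2 fold change -0.05). That is 35.3% lower, against 29.0% of all tested genes. The choline kinase gene CHKA fell to 41.0 ± 2.59 CPM in DHT+WBM, against 58.9 ± 0.80 CPM in DHT (log2 fold change -0.52 ± 0.05, edgeR adjusted p = 4.53e-11). PCYT2, of phosphatidylethanolamine synthesis, had a log2 change of -0.35 ± 0.06, and the ethanolamine kinase gene ETNK2 rose by 1.05 ± 0.08. Other glycerolipid acyltransferases and phosphatases had 6 of 17 higher and 2 lower (median 0.01), with 47.1% called against 58.2% of all tested genes. GPD1L, a glycerol-3-phosphate dehydrogenase gene, fell to 75.4 ± 1.53 CPM in DHT+WBM, against 110 ± 1.69 CPM in DHT, and AGPAT4 and GPAT4 rose by 0.85 ± 0.18 and 0.16 ± 0.04. AGPAT4 was scarce, at 3.21 ± 0.17 CPM in DHT+WBM and 1.77 ± 0.47 CPM in DHT.

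Partners of elongation and desaturation had 2 of 10 higher and 2 lower (median -0.04), with 40% called against 58.2% of all tested genes. HACD2, a dehydratase of the elongation cycle, fell to 65.8 ± 1.52 CPM in DHT+WBM, against 93.2 ± 1.08 CPM in DHT, and the mitochondrial malonyltransferase gene MCAT fell by 0.29 on the log2 scale. HACD1 rose by 0.58 ± 0.21 on the log2 scale. Lipid droplet and lipolysis genes mostly did not pass, with 1 of 12 higher and 1 lower (median 0.06). Of that list 16.7% were called, against 58.2% of all tested genes. PLIN4, a lipid droplet coat gene, rose to 6.33 ± 0.67 CPM in DHT+WBM, against 1.75 ± 0.03 CPM in DHT (log2 fold change 1.85 ± 0.15, edgeR adjusted p = 1.87e-13), and CIDEB fell by 0.83 on the log2 scale.

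Small list counts moved by over 1.5 times when single libraries were left out. For the elongation and desaturation partners, at most 1 gene was higher without any single DHT+WBM library or without DHT replicate 1, and 1 was higher in DESeq2. In the AMPK list 3 were higher without DHT+WBM replicate 1 or 2, and 2 were lower without DHT+WBM replicate 2 or DHT replicate 2. Without DHT replicate 1, the supply list had 2 lower, the lipid droplet list 3 higher and the carrier list 1 lower, as it had in DESeq2. The lipid droplet list had 2 lower without DHT+WBM replicate 1, and the other glycerolipid list had 1 lower without DHT+WBM replicate 2.

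**Figure D5:**
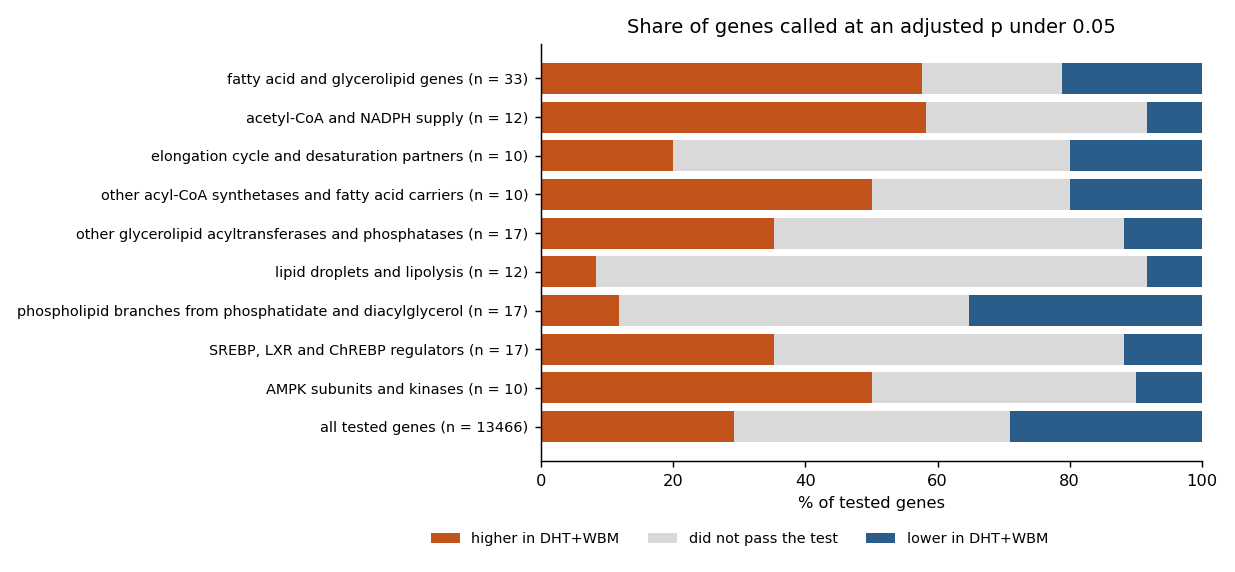
Share of tested genes higher in DHT+WBM (orange), lower in DHT+WBM (blue) or not past the test (grey), in percent, for the 33 genes, the 8 related lists and all tested genes, with the number tested beside each name. The 33 genes show 57.6% higher and 21.2% lower, against 29.2% and 29.0% of all tested genes.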

How the data were processed

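RNA-seq of 6 libraries, 3 DHT+WBM and 3 DHT, was used, grouped by sample title. The table the authors deposited holds raw counts with gene spans and lengths in kb (the table's own length values, used for per-kb levels). Per the submitters' processing notes, bcl2fastq 2.18.0.12, STAR 2.6.0, HTSeq 0.6.0, edgeR 3.28.1 and hg19 were involved; the sources used here name no strand setting or annotation. In R 4.3.3, edgeR 4.0.16 kept genes by filterByExpr (minimum count 10, minimum total 15), scaled by TMM, and ran the two-sided quasi-likelihood F-test with Benjamini-Hochberg adjustment over all 13466 genes. The SE was taken as the log2 fold change over the root of F.

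The 33 genes and all lists were chosen with earlier results of these data known, so a pattern already seen in them is not independent support. Values in every library are given for the 12 largest changes past the test without overlap and at least 1 CPM, plus ACLY, ACACA, FASN, SCD and SREBF1, and in addition for ELOVL5 and THRSP, chosen after their values were seen. Up to 3 genes with the smallest adjusted p are named per related list, except 1 that is not reported here; other genes there, and neighbours of the FADS genes, were chosen after their values were seen. Alternatives were other scaling factors, filters and thresholds, DESeq2 1.42.0, limma-voom 3.58.1, the replicate number as a block, and each library left out.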

Additional observations from a re-analysis of the deposited data

How the results depend on the processing

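Of the 33 genes, 22 kept their direction and their side of the threshold in every one of the 14 refits that tested them, 21 of them called genes. THRSP, among the 21, and MLXIPL were not tested in the refit that asks for at least 1 CPM in at least 3 libraries. Counts of the 33 genes ranged from 16 to 22 higher and 6 to 7 lower over those refits. With a minimum absolute log2 fold change of 0.5, 4 were higher and 2 lower, and of the related genes 12 were higher and 6 lower, which the added limit itself sets. Directions reversed only in genes that did not pass the test. ACACB stood at 0.019 with upper-quartile factors, at 0.034 with library totals alone and between -0.087 and 0.069 with single libraries left out. ELOVL1 stood at 0.013 with library totals alone, and MLXIPL between -0.468 and 0.089 with single libraries left out. The causes were not tested. Other scaling factors moved the median of all genes by at most 0.05 on the log2 scale.

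With the replicate number as a block, 19 of the 33 genes were higher and 7 lower, as without it. Deviations from the group means correlated at 0.050, 0.037 and 0.019 between libraries of equal number, so the numbers were not taken to pair them. Precision at depth is limited for THRSP and MLXIPL, with 5 to 17 reads a library.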

Other observations

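Lipid droplet coat genes differed in level. PLIN3 stood at 85.7 CPM in DHT+WBM and 81.9 CPM in DHT and did not pass the test. PLIN2, another coat gene, averaged 0.52 CPM in DHT+WBM and 0.32 CPM in DHT and did not pass the test (log2 fold change 0.66 ± 0.42, edgeR adjusted p = 0.179). FABP5, a fatty acid binding protein gene, averaged 0.02 CPM in DHT+WBM and 0.03 CPM in DHT. These are 3 to 13 reads a library for PLIN2 and at most 1 for FABP5. Such counts are uncertain, and whether these genes are silent in the cells was not tested. G0S2, an inhibitor of adipose triglyceride lipase, had no count in any library. CHPT1, the cholinephosphotransferase gene, stood at 1235 ± 31.6 CPM in DHT+WBM and 1232 ± 13.3 CPM in DHT, and IDH1, a source of cytosolic NADPH, at 750 ± 7.94 CPM in DHT+WBM and 779 ± 30.4 CPM in DHT; neither passed the test.

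In DHT replicate 1 the genes farthest from the other DHT libraries, among those with a mean of at least 10 CPM, were MALAT1 (log2 distance 0.86), DDX39B (0.85), NEAT1 (0.67) and CCNL1 (0.57), followed by FCGBP, LTBP4, PLEC, PKD1 and FASN (0.45). PLEC, a long cytoskeletal linker gene, showed 198 CPM in DHT replicate 1 against 144 and 144 CPM in DHT replicates 2 and 3. DHT replicate 1 was not the only library that stood apart. Over all such genes the SD of the log2 distance was 0.095, 0.103 and 0.097 in DHT replicates 1, 2 and 3. In DHT replicate 2, ELOVL4 lay at 0.30, SCD5 at 0.29 and AGPAT2 at -0.29, and in DHT replicate 3 SCD5 lay at -0.31.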
